A study of Homo sapiens with 6 samples.

Results

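Mediator and the general transcription factors are the protein complexes that place RNA polymerase at the start of genes, and 70 of their genes were measured among 17687 genes on whole-transcript arrays. The genes were taken by symbol: MED or TAF followed by a number, or a name starting with GTF2 or GTF3. Where a gene has several probe sets (groups of probes for 1 transcript), the one with the highest mean stands for it, but 0 of the 70 had more than 1, so no measured value decided which genes entered. The cells were SH-SY5Y, an established human neuroblastoma line of sympathetic origin, and 1 protocol text, shared by all samples, gives differentiation with atRA (all-trans retinoic acid) over 96 h and a bioactive compound at 15 µM. The 3 samples labelled 15EN received the compound, a name the labels do not spell out, and the 3 labelled VC are vehicle controls; the series title names eurycomanone, from Eurycoma longifolia roots. By their titles, each group has 1 sample at each of passages 33, 34 and 35, numbered as replicates 1, 2 and 3; the sample descriptions give passage 33 throughout. The labels name passages and not separate cultures, so the spread behind each p-value is that between arrays of different passage and may be partly technical.

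Mediator is a large modular complex that bridges transcription factors bound at enhancers and RNA polymerase II at promoters. Its head and middle modules contact the polymerase, MED14 holds the modules together, the tail receives activators, and a separable kinase module with CDK8 or CDK19 reversibly blocks the polymerase contact. TFIID, built from TBP and the TAF proteins, recognises the core promoter; TFIIA and TFIIB steady it there, TFIIF brings the polymerase, and TFIIE recruits TFIIH, which opens the DNA and phosphorylates the polymerase tail. SL1 does the work of TFIID for RNA polymerase I, and TFIIIA and TFIIIC recognise the genes of RNA polymerase III.

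More of these genes were higher than lower in 15EN. Of the 70 members, 23 rose and 1 fell, where rose or fell means an adjusted p under 0.05 in limma over all genes. Over all 17687 genes 12.3% rose and 9.09% fell (21.4% in either direction), beside 34.3% of the members called in either direction. The median log2 difference (15EN minus VC) was 0.47 over the members and 0.01 over all genes. In 33 members every 15EN array lay above every VC array, as in 19.7% of all genes, and in 5 every 15EN array lay below, as in 16.6%. The members had brighter probe sets than most genes, with a median log2 signal of 10.5 against 7.67. Among genes outside the dimmest tercile 17.6% rose and 13% fell, and of the 69 members among these 33.3% rose and 1.45% fell. Dropping a tercile does not match these genes to the members in brightness. With a trend with brightness removed, 17 members rose and 2 fell, beside 10.1% and 10.6% of all genes. The set, with MED18 and MED8 at its head, was put forward with earlier results of this comparison known, so its p-values are a description and not independent support.

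The 6 arrays had similar median log2 signals (7.67 to 7.75). Over all probe sets 15EN replicate 3 correlated with the other 15EN arrays at 0.979 and 0.980, against 0.990 to 0.992 among VC arrays. The members' median shift from their VC means was 0.52, 0.53 and 0.32 in 15EN replicates 1, 2 and 3. Without 15EN replicate 3, 29 members rose and 1 fell, beside 18.2% and 12.7% of all genes. The number of rising members was 15 without 15EN replicate 1, 12 without 15EN replicate 2, and 14, 13 and 12 without VC replicates 1, 2 and 3, beside 7.36% to 8.47% of all genes. The hybridization controls were dimmer in 15EN than in VC (mean log2 signal 10.3 to 10.6 against 11.2 to 11.4). Scaling the arrays to them raised the median of all genes to 0.88, at which 61 members and 68.7% of all genes rose and 0 members fell. Directions are therefore relative to the median gene of the deposited values.

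**Figure D1:**
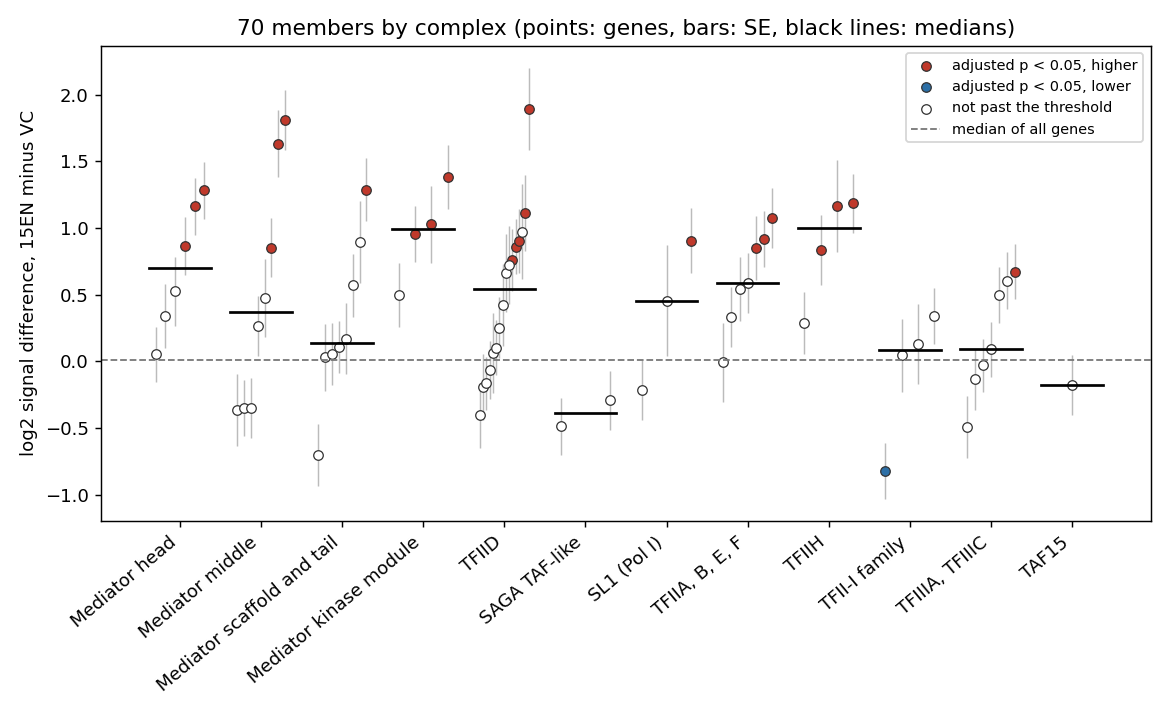
Each point is 1 of the 70 members, with its log2 signal difference between 15EN and VC (3 arrays each) on the vertical axis and its complex on the horizontal axis; bars are standard errors of the limma fit and black lines are medians. Filled points passed adjusted p 0.05. The medians of TFIIH (1.00) and the kinase module (0.99), from 4 members each, lie close together at the top. Their measured subunits under other names are not drawn here, and 0 of 5 and 0 of 3 of those passed. The only filled point below the dashed median of all genes (0.01) is GTF2I (-0.82).

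Promoter sequences of 55 of the 70 members were matched by symbol in RefSeq (GRCh38.p14), 67 promoters in all, covering 19 of the 23 rising genes. The 250 bases before the start are shown for a rising member of the Mediator head, the Mediator middle, TFIID and TFIIH, and for MED17, which did not pass the test, so that members with and without a call can be compared. Capitals mark matches, on either strand, to the cyclic AMP response element TGACGTCA (CRE), the palindrome of NRF1, the ETS word CCGGAAG, the E-box CACGTG of MYC and clock factors, the GC box GGGCGG of SP1, the NF-Y box CCAAT and the TATA box TATAAA. The windows are MED18 at chr1:28328790-28329039 (plus strand), MED10 at chr5:6378548-6378797 (minus), TAF12 at chr1:28643068-28643317 (minus), GTF2H1 at chr11:18322317-18322566 (plus) and MED17 at chr11:93784032-93784281 (plus), each printed 5′ to 3′ along the gene.
MED18: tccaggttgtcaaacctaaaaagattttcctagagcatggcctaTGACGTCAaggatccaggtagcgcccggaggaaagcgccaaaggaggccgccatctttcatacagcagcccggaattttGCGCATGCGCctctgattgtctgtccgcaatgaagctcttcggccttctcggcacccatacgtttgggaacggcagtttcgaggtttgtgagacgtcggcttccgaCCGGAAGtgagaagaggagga
MED10: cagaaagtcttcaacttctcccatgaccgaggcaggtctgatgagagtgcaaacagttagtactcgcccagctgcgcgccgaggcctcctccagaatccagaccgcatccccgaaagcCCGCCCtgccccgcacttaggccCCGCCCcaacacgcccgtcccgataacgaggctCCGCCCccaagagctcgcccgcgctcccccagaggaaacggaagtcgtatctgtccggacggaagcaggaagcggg
TAF12: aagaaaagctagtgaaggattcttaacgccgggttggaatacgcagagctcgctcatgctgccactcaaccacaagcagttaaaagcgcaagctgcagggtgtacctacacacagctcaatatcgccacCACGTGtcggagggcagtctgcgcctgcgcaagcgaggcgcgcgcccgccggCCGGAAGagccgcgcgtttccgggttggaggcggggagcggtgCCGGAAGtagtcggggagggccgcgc
GTF2H1: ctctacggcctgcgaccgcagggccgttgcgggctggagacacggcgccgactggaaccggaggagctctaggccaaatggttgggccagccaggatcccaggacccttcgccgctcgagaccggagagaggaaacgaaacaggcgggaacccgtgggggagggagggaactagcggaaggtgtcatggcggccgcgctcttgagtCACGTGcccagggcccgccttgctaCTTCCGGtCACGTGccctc
MED17: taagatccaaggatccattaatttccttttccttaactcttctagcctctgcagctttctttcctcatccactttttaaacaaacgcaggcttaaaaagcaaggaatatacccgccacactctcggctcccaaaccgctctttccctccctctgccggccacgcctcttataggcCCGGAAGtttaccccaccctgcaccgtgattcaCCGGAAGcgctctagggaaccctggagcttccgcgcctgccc
The MED18 window holds, towards the start, 1 CRE, 1 NRF1 and 1 ETS match. TAF12 holds an E-box and then a pair of ETS matches, GTF2H1 holds an ETS match between a pair of E-boxes, and MED10 holds GC boxes only. MED17, with no call, also holds a pair of ETS matches.

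Over all members, CCGGAAG was in 28.4% of the 67 promoters, against 8.52% of all 35116 promoters in the table and 10.7% of the 20090 promoters of genes on the arrays. It was in 8 of 21 promoters of rising members (38.1%) and in 11 of 46 of the members that did not pass (23.9%). CACGTG was in 19.4% of member promoters, against 6.34% of all and 7.3% of those of genes on the arrays, with 5 of 21 among rising members and 8 of 46 among those that did not pass. The CRE was in 4 member promoters, those of MED18, TAF4B, TAF10 and GTF3C1 (5.97%, against 1.65% of all and 2.03% of those of genes on the arrays), and the NRF1 palindrome in 3, those of MED18, GTF3A and GTF3C1 (4.48%, against 1.03% and 1.32%). TATAAA was in 5.97% of member promoters, 10.7% of all and 8.81% of those of genes on the arrays. CCAAT was in 37.3%, 32% and 32.8%, and GGGCGG in 53.7%, 42.6% and 54.4%, so for the GC box the members lay just below the genes on the arrays. A match is a run of letters and not a bound site, and these shares carry no test.

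Each count by complex below is to be read beside the 12.3% of all genes that rose and the 9.09% that fell. The head of Mediator had 3 of 6 measured subunits higher and 0 lower, with a median difference of 0.70. MED18 pairs with MED20 in a movable jaw of the head, and MED8 tethers that pair to the rest. The log2 signal of MED18 was 10.23, 9.81 and 9.81 in 15EN replicates 1 to 3, against 8.67, 8.80 and 8.88 in VC. Every 15EN array lay above every VC array, and the difference was 1.16 ± 0.21 (SE, n = 3 per group, limma adjusted p = 0.00398), a 2.24-fold rise. MED8 measured 10.11, 10.47 and 10.26 in 15EN and 8.79, 9.07 and 9.13 in VC. It was also higher on each treated array, by 1.28 ± 0.21 (limma adjusted p = 0.00233). MED22, another small head subunit, rose by 0.87 ± 0.22 (limma adjusted p = 0.0171), a call lost without 15EN replicate 2, VC replicate 1 or VC replicate 2 (adjusted p up to 0.0716).

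The other three head genes did not pass. MED20, the partner of MED18, measured 9.28, 8.91 and 9.56 in 15EN and 8.68, 8.99 and 9.07 in VC, and the groups overlapped (0.34 ± 0.24, limma adjusted p = 0.379). MED17, the large subunit on which the head is built, differed by 0.05 ± 0.21, limma adjusted p = 0.902. MED11 was dim on all 6 arrays, meaning under the level that 90 of 100 negative control probe sets stay below on an array, and differed by 0.53 ± 0.26; without 15EN replicate 3 it passed (0.75, limma adjusted p = 0.0251). Whether MED18 changed more than MED20, or any subunit more than its partner or paralog, was not tested.

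In the middle module 3 of 8 subunits rose and 0 fell. MED10, a small subunit, measured 14.15, 13.75 and 13.87 in 15EN. In VC it measured 12.40, 12.003 and 11.94, below all treated arrays by more than the spread within either group. Its difference of 1.81 ± 0.22 had the smallest p of all members (limma adjusted p = 0.000561). MED19, another subunit of the middle, measured 10.86, 11.17 and 10.34 in 15EN and 9.09, 9.02 and 9.35 in VC. The groups did not overlap, and 15EN replicate 3 was the lowest of the treated arrays (1.63 ± 0.25, limma adjusted p = 0.00164). MED1, the subunit that binds nuclear hormone receptors, rose by 0.85 ± 0.22 (limma adjusted p = 0.0198), a call lost without 15EN replicate 2, VC replicate 2 or VC replicate 3 (adjusted p up to 0.0923). MED7 (0.48 ± 0.29) and MED21 (0.26 ± 0.22), which pair to form a hinge, did not pass. MED31 (-0.36), MED9 (-0.35) and MED4 (-0.35) did not pass either, although every 15EN array of MED4 lay below every VC array.

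Of the 8 scaffold and tail subunits 1 rose (12.5%) and 0 fell, beside 12.3% and 9.09% of all genes. The median difference of the 8 subunits was 0.14. MED29 measured 11.24, 11.69 and 11.11 in 15EN and 9.90, 9.98 and 10.30 in VC. It was higher on each treated array, by 1.29 ± 0.24 (limma adjusted p = 0.00379). MED27, a neighbour of MED29 in the complex, measured 11.40, 11.39 and 10.25 in 15EN and 10.23, 10.13 and 9.99 in VC. Its 15EN replicate 3 lay just above the controls, and the difference of 0.89 ± 0.31 did not pass (limma adjusted p = 0.0654). It passed without that array (1.27, limma adjusted p = 0.000847) and in the fit blocked by replicate number (limma adjusted p = 0.0296), which took the module's count to 2. The scaffold MED14 (0.17 ± 0.26), the activator-binding MED15 (0.03 ± 0.25) and MED16 (0.05 ± 0.23) had overlapping groups, and MED28 (0.10 ± 0.19) and MED30 (0.57 ± 0.24, dim on all 6 arrays) did not pass.

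MED23, a tail subunit known to bind the MAP kinase-regulated activator ELK1, had the most negative Mediator difference. It measured 10.49, 10.49 and 9.90 in 15EN and 10.85, 11.06 and 11.08 in VC, with no overlap, and did not pass (-0.71 ± 0.23, limma adjusted p = 0.055). It passed as lower after quantile normalization (-0.80, limma adjusted p = 0.0235) and after the dependence on brightness was taken out (-0.89, limma adjusted p = 0.0217). It also passed as lower with array weights (-0.59, limma adjusted p = 0.0441) and without the dimmest tercile of genes (-0.71, limma adjusted p = 0.0416). Scaled to the hybridization controls its difference was 0.16, below the median gene there.

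The kinase module had 3 of its 4 measured MED subunits higher and 0 lower. MED13 joins the kinase to the core and MED12 activates it; MED13L and MED12L are their paralogs. MED13L measured 13.75, 14.52 and 14.08 in 15EN and 12.64, 12.76 and 12.80 in VC. The treated arrays were all higher, by 1.38 ± 0.24 (limma adjusted p = 0.00289). MED13 measured 15.28, 15.51 and 15.16 in 15EN and 14.21, 14.48 and 14.40 in VC, a rise of 0.96 ± 0.21 (limma adjusted p = 0.00896). MED12L was dim on all 6 arrays and rose by 1.03 ± 0.29 (limma adjusted p = 0.0296), a call lost in 4 of the 6 fits that leave out 1 array. MED12 differed by 0.50 ± 0.24, limma adjusted p = 0.183, without overlap between groups. The cyclin CCNC (0.41 ± 0.22), the kinase CDK8 (0.43 ± 0.23) and its paralog CDK19 (-0.73 ± 0.24, limma adjusted p = 0.0525) gave 0 of 3 called. CDK19 passed as lower in the fit blocked by replicate number (limma adjusted p = 0.0352), after quantile normalization (0.019) and with the brightness trend removed (0.0238). It also passed as lower after median centring (0.048), with array weights (0.0403), without the dimmest tercile of genes (0.0399) and without 15EN replicate 2 (0.0469). Under the other settings it did not pass.

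**Figure D2:**
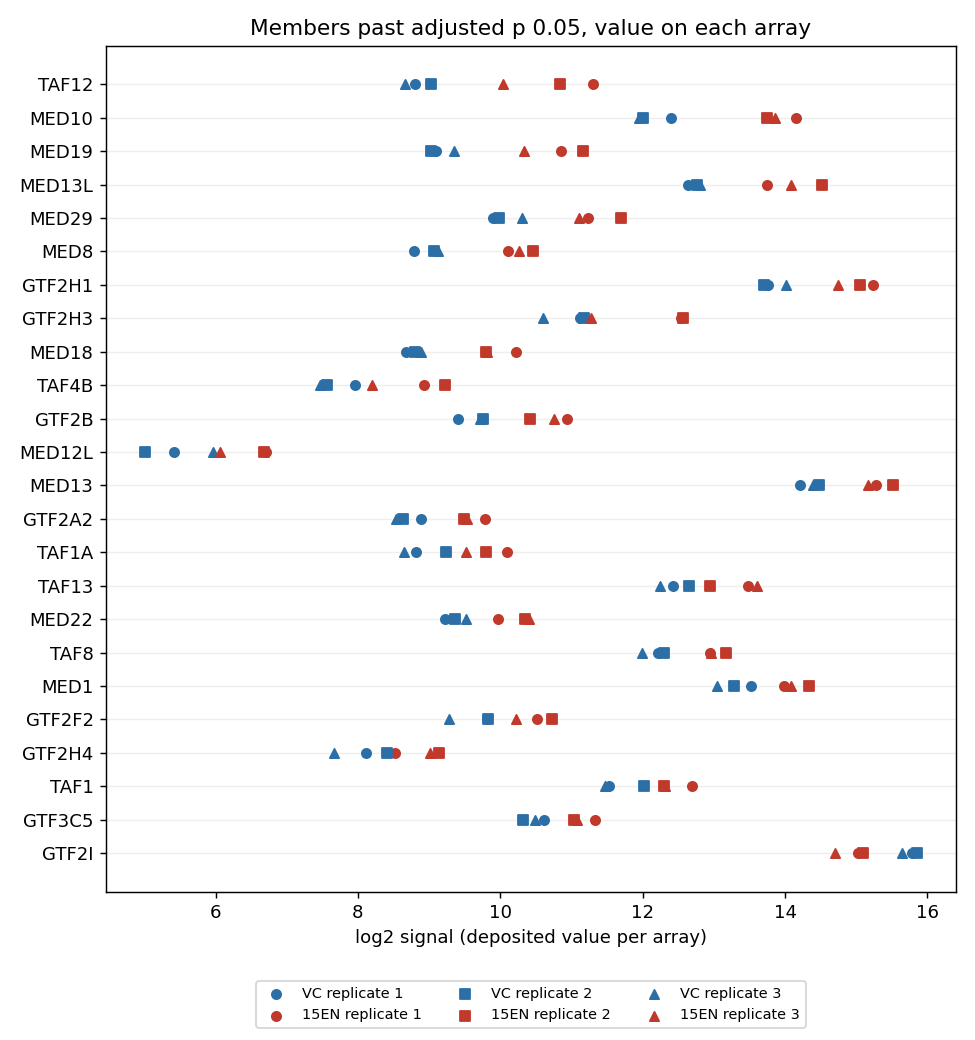
Log2 signal on each of the 6 arrays (horizontal axis) for the 24 members past adjusted p 0.05, ordered by difference; red is 15EN, blue is VC, and the symbol gives the replicate number. In all 24 the groups do not overlap, from TAF12 (1.90) at the top to GTF2I (-0.82) at the bottom. They were picked by the test on these same arrays, so the lack of overlap adds no support. Of all 70 members 38 have no overlap, beside 36.3% of all genes.

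In TFIID, 5 of 16 measured genes rose and 0 fell, with a median of 0.54. TAF12, a histone-fold subunit that pairs with TAF4 or TAF4B, had the largest difference of all members. It measured 11.30, 10.84 and 10.04 in 15EN and 8.80, 9.03 and 8.66 in VC. All treated arrays were higher, although they spread widely (1.90 ± 0.31, limma adjusted p = 0.00211). TAF4B, a variant subunit known from germ cells, rose by 1.11 ± 0.29 (limma adjusted p = 0.0196). TAF4 measured 8.17, 8.38 and 8.53 in 15EN and 8.44, 8.63 and 8.21 in VC, with overlapping groups (-0.07 ± 0.22, limma adjusted p = 0.884). TAF13, the histone-fold partner of TAF11, rose by 0.90 ± 0.24 (limma adjusted p = 0.0234), while TAF11 differed by 0.10 ± 0.21. TAF8, which carries TAF10 into the nucleus, rose by 0.86 ± 0.21 (limma adjusted p = 0.014), while TAF10 differed by 0.06 ± 0.30. TAF1, the largest subunit and a binder of acetylated histones, rose by 0.76 ± 0.23 (limma adjusted p = 0.0431).

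The TFIID count changed when single arrays were left out, as did the share of all genes that rose. Over all genes 18.2% rose without 15EN replicate 3 and 7.36% to 8.47% when any other array was left out, beside 12.3% with all arrays. The TFIID count was 1 without VC replicate 3, 2 without 15EN replicate 1 or 2, 3 without VC replicate 1 or 2, and 7 without 15EN replicate 3. TAF12 passed in all 6 of these fits, TAF8 was lost in 2, and TAF1, TAF4B and TAF13 were each lost in 4. TAF3, a reader of promoter histone methylation, measured 9.87, 9.85 and 8.44 in 15EN and 8.58, 8.33 and 8.33 in VC, so that only the third treated array overlapped the controls. With all arrays its difference did not pass (0.97 ± 0.36, limma adjusted p = 0.0818). It passed without 15EN replicate 3 (1.45, limma adjusted p = 0.000414) and in the fit blocked by replicate number (limma adjusted p = 0.035). TAF2, which contacts the initiator element, differed by 0.66 ± 0.30 with all arrays and by 0.94 without 15EN replicate 3 (limma adjusted p = 0.0163). TAF5 (0.42 ± 0.31), TAF6 (-0.19 ± 0.25), TAF7 (0.25 ± 0.23) and TAF9B (-0.17 ± 0.20) had overlapping groups. The testis paralogs TAF1L (-0.40 ± 0.24) and TAF7L (0.73 ± 0.29) were dim on all 6 arrays and did not pass.

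Of the 6 members with TAF symbols that were not listed under TFIID here, 1 was called. TAF5L and TAF6L, the counterparts of TAF5 and TAF6 in the histone acetylase complex SAGA, had differences of -0.29 ± 0.22 and -0.49 ± 0.22, and neither passed. Of 3 SL1 subunits TAF1A rose (0.91 ± 0.24, limma adjusted p = 0.024), a call lost in 4 of the 6 fits that leave out 1 array. TAF1C measured 9.57, 10.67 and 8.70 in 15EN and 9.47, 9.18 and 8.92 in VC, with an SD of 0.984 among the treated arrays (0.45 ± 0.42). TAF1B differed by -0.22 ± 0.23. The median of the 3 was 0.45 with all arrays and -0.0553 without 15EN replicate 2. TAF15, an RNA-binding protein that can be found with TFIID, differed by -0.18 ± 0.22.

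Among the basal factors of RNA polymerase II, 3 of 7 genes of TFIIA, TFIIB, TFIIE and TFIIF rose and 0 fell. GTF2B, which encodes TFIIB, measured 10.93, 10.42 and 10.75 in 15EN and 9.40, 9.76 and 9.72 in VC. Its treated arrays were all higher, by 1.08 ± 0.22 (limma adjusted p = 0.00728). The small TFIIA subunit GTF2A2 rose by 0.92 ± 0.21 (limma adjusted p = 0.0114), a call lost without VC replicate 2 or 3. GTF2A1, the precursor of the large TFIIA subunits, differed by 0.33 ± 0.23 with overlapping groups. The TFIIF subunit GTF2F2 rose by 0.85 ± 0.24 (limma adjusted p = 0.0297), a call that of the 6 fits leaving out 1 array held only in the one without 15EN replicate 3. Its partner GTF2F1 differed by 0.54 ± 0.24 and passed without that array (0.74, limma adjusted p = 0.0204). The TFIIE subunits were GTF2E1 at 0.59 ± 0.22, limma adjusted p = 0.0931, and GTF2E2 at -0.01 ± 0.30, with overlapping groups.

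Of the 4 measured TFIIH genes with a GTF2H symbol, 3 were higher and 0 lower, beside 12.3% and 9.09% of all genes. Their median of 1.00 was close to that of the kinase module genes with a MED symbol. The order of these medians turned with several settings, for example without VC replicate 3 (0.81 against 1.13). GTF2H1, a core subunit that binds TFIIE, measured 15.23, 15.05 and 14.75 in 15EN and 13.77, 13.70 and 14.01 in VC. Every treated array was higher, by 1.18 ± 0.22 (limma adjusted p = 0.00406), and the call held without any single array. The core subunits GTF2H3 (1.17 ± 0.35, limma adjusted p = 0.0366) and GTF2H4 (0.84 ± 0.26, limma adjusted p = 0.0456) also rose. Each was lost in 5 of the 6 fits that leave out 1 array, and the count was 2 without 15EN replicate 1 or 15EN replicate 3 and 1 without any other array. The small subunit GTF2H5, dim on 5 arrays, differed by 0.29 ± 0.23. The TFIIH genes with other symbols gave 0 of 5 called. These were the helicases ERCC2 (0.07 ± 0.27) and ERCC3 (-0.22 ± 0.23) and the kinase trio CDK7 (0.39 ± 0.27), CCNH (0.49 ± 0.25) and MNAT1 (0.65 ± 0.31). CDK7 (0.65) and MNAT1 (0.99) passed as higher without 15EN replicate 3.

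GTF2I was the only member that fell. It encodes TFII-I, a signal-responsive factor that binds initiator and enhancer elements and is not one of the basal factors despite its name. It measured 15.03, 15.09 and 14.70 in 15EN and 15.79, 15.85 and 15.64 in VC, without overlap. The difference was -0.82 ± 0.21 (limma adjusted p = 0.0189). The call was lost when VC replicate 1 was left out (adjusted p = 0.0658) and when VC replicate 2 was (adjusted p = 0.0831). Scaled to the hybridization controls it was 0.0461, with no call, and below the median gene there. Its relatives GTF2IRD1 (0.05 ± 0.27), GTF2IRD2 (0.34 ± 0.21) and GTF2IRD2B (0.13 ± 0.30) did not pass. GTF2I and both GTF2IRD2 genes have near-identical copies in the genome, so their values are uncertain where probes match several copies.

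TFIIIA and TFIIIC, factors of RNA polymerase III, had 1 of 7 measured genes higher and 0 lower, beside 12.3% and 9.09% of all genes. Their median was 0.09. The TFIIIB genes BDP1 (0.57 ± 0.21), BRF1 (-0.12 ± 0.22) and BRF2 (0.29 ± 0.25) were counted with the partner genes and did not pass. GTF3C5, a TFIIIC subunit, measured 11.33, 11.03 and 11.07 in 15EN and 10.61, 10.32 and 10.49 in VC. The groups did not overlap (0.67 ± 0.21, limma adjusted p = 0.0424). The call was lost in 5 of the 6 fits that leave out 1 array, in quantile-normalized values (adjusted p = 0.0782) and once the dependence on brightness was taken out (adjusted p = 0.134). GTF3C4 (0.61 ± 0.21) and GTF3C3 (0.50 ± 0.21) also had no overlap and did not pass, though GTF3C4 passed without 15EN replicate 3 (0.73, limma adjusted p = 0.0185). GTF3C6 had no overlap in the opposite direction (-0.49 ± 0.23) and did not pass. GTF3A, the zinc finger protein that directs the polymerase to 5S RNA genes, differed by -0.03 ± 0.20, GTF3C1 by -0.14 ± 0.23 and GTF3C2 by 0.09 ± 0.21.

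**Figure D3:**
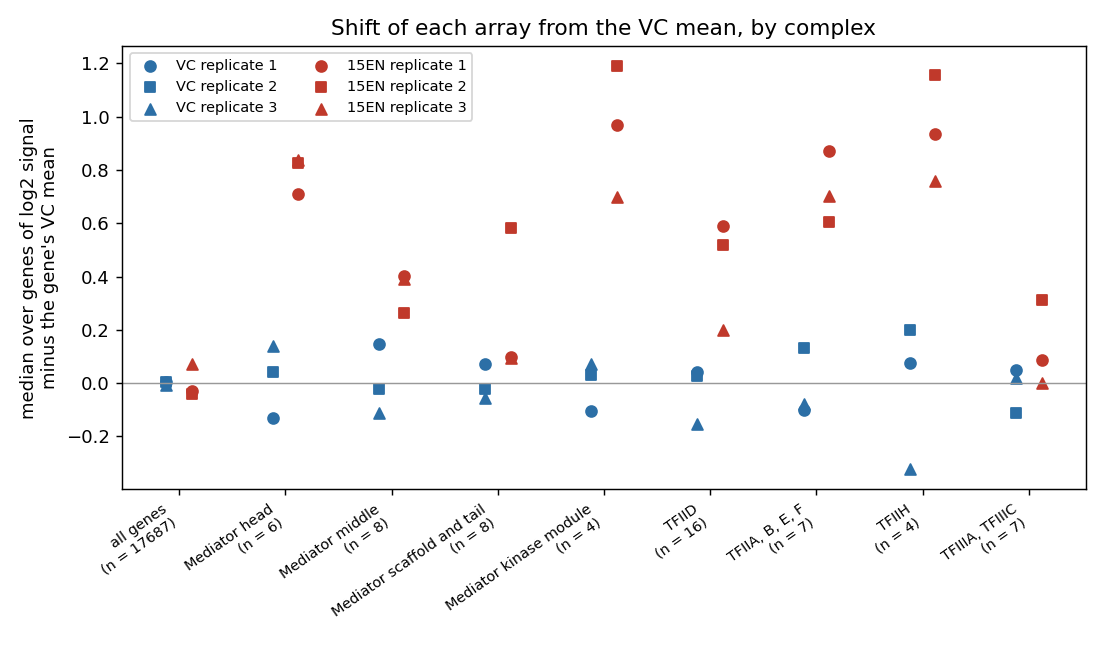
For each array and complex, the vertical axis gives the median over genes of the log2 signal minus that gene's VC mean; red is 15EN, blue is VC, and the symbol gives the replicate number. For the kinase module the 15EN arrays lie at 0.97, 1.19 and 0.70 in replicates 1, 2 and 3, and for all genes at -0.03, -0.04 and 0.07.

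The treated arrays were closer together for some complexes than for others. The head of Mediator was shifted by 0.71, 0.83 and 0.84 in 15EN replicates 1, 2 and 3, and TFIIA, B, E and F by 0.87, 0.61 and 0.70. For the scaffold and tail the shifts were 0.10, 0.58 and 0.09, so replicate 2 stood above the others. For TFIID they were 0.59, 0.52 and 0.20, with replicate 3 the lowest. Of the 23 rising members, 10 had their lowest treated value on 15EN replicate 3, 7 on replicate 2 and 6 on replicate 1.

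Differences of at least 2-fold were seen in 12 members, all of them rises, counting MED12L, which was dim on all 6 arrays, and TAF4B, which was dim on 2 VC arrays, so that these folds are uncertain. Calls held in all 6 fits that leave out 1 array, and under the other settings tried that could change a member's value, for 10 members: MED8, MED10, MED13, MED13L, MED18, MED19, MED29, TAF12, GTF2B and GTF2H1. Of these 7 belong to Mediator. At the other end, 9 called members lost their call in at least 4 of those 6 fits. How many of all genes changed at least 2-fold, or kept or lost their calls in this way, was not counted. The numbers in this paragraph therefore have no background to be read against.

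**Figure D4:**
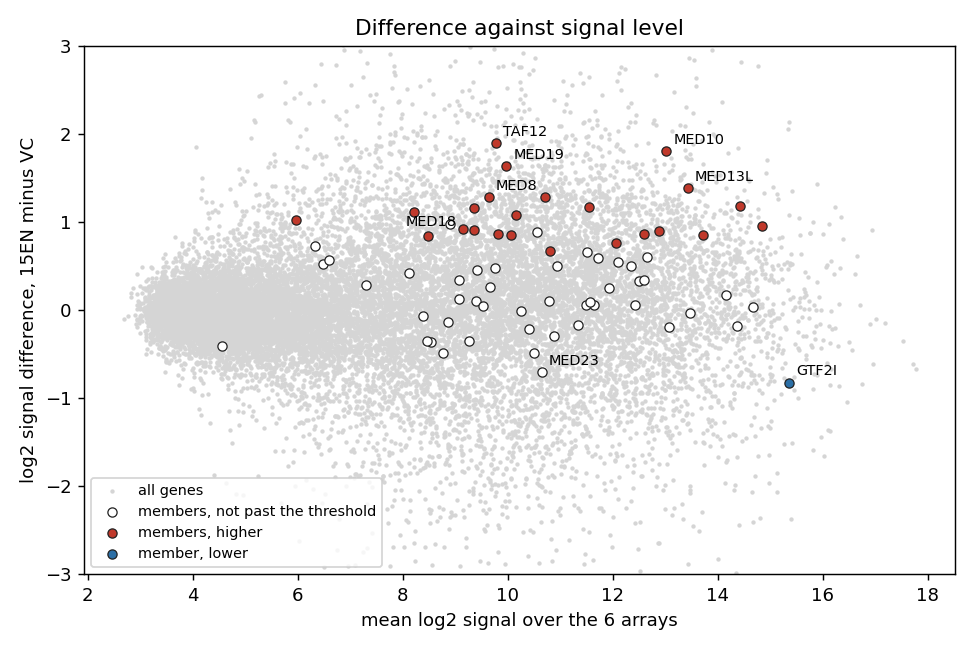
Log2 difference between 15EN and VC (vertical axis) against mean log2 signal over the 6 arrays (horizontal axis) for all genes (grey) and the 70 members. The axis ends at -3 and 3, which leaves out 70 genes of all; rising members are spread from MED12L (mean signal 5.97) to MED13 (14.84).

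Genes that work with these complexes under other names were counted in the same way. Of 52 measured partner genes 19 rose (36.5%) and 0 fell, beside 12.3% and 9.09% of all genes, with a median of 0.49. TBP, the TATA-binding protein shared by the 3 polymerase systems, rose by 1.18 ± 0.22, from 12.64 ± 0.15 in VC to 13.82 ± 0.23 in 15EN (SD, n = 3, limma adjusted p = 0.00394). BTAF1, which removes TBP from DNA, rose by 1.30 ± 0.24 (limma adjusted p = 0.00377). The list headed TBP family also holds BTAF1, DR1 and DRAP1, which are not relatives of TBP, and 4 of its 6 genes rose. Of these, DR1 lost its call without 15EN replicate 1 or 2, without any VC array, after quantile normalization and in the fit blocked by replicate number. TBPL1 lost its call without 15EN replicate 1, VC replicate 2 or VC replicate 3. Both calls were lost with the brightness trend removed. Of 8 genes of TFIIIB and SNAPc 3 rose, all of them subunits of SNAPc, which serves small nuclear RNA promoters. Of the 3, SNAPC5 lost its call without VC replicate 1 or VC replicate 2. The SNAPc subunit SNAPC3 differed by -0.55 ± 0.20 (limma adjusted p = 0.0778), with every 15EN array below every VC array, and passed as lower after quantile normalization (limma adjusted p = 0.0331), with the brightness trend removed (0.0269) and with array weights (0.048). SNAPC4 differed by 0.04 ± 0.31. Among the rising subunits were SNAPC1 (1.53 ± 0.25, limma adjusted p = 0.0021) and SNAPC2 (1.56 ± 0.28, limma adjusted p = 0.00372), while the TFIIIB subunit BRF1 differed by -0.12 ± 0.22. RRN3, which readies RNA polymerase I, rose by 1.31 ± 0.26 (limma adjusted p = 0.00581).

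Of 15 pausing and elongation genes 7 rose and 0 fell. These included CCNT1, the cyclin of the elongation kinase P-TEFb (1.36 ± 0.20, limma adjusted p = 0.00141), and SUPT5H of the pausing factor DSIF (0.93 ± 0.19, limma adjusted p = 0.00709). CCNT1 and SUPT5H kept their calls under every setting. AFF4, CDK9, ELL, ELL2 and HEXIM1 each lost theirs in at least 1 of the fits that leave out 1 array. In the SAGA partner list, which holds no gene with a TAF symbol, 4 of 13 rose and 0 fell. In the fit blocked by replicate number 5 rose, with ATXN7 of the deubiquitinase module added (0.98 ± 0.31, limma adjusted p = 0.0507 without the block and 0.0206 with it). The core subunit SUPT20H rose by 0.95 ± 0.20 (limma adjusted p = 0.00804). SUPT7L rose by 0.91 ± 0.21 (limma adjusted p = 0.0117), a call lost without VC replicate 2 or VC replicate 3. The acetylase KAT2B and SGF29, a histone methylation reader, also rose (limma adjusted p = 0.00171 and 0.00149), but both were dim on all 3 VC arrays, so only a bound can be given. Against the dim level of those arrays, KAT2B was at least 2.67-fold and SGF29 at least 1.90-fold higher in 15EN.

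**Figure D5:**
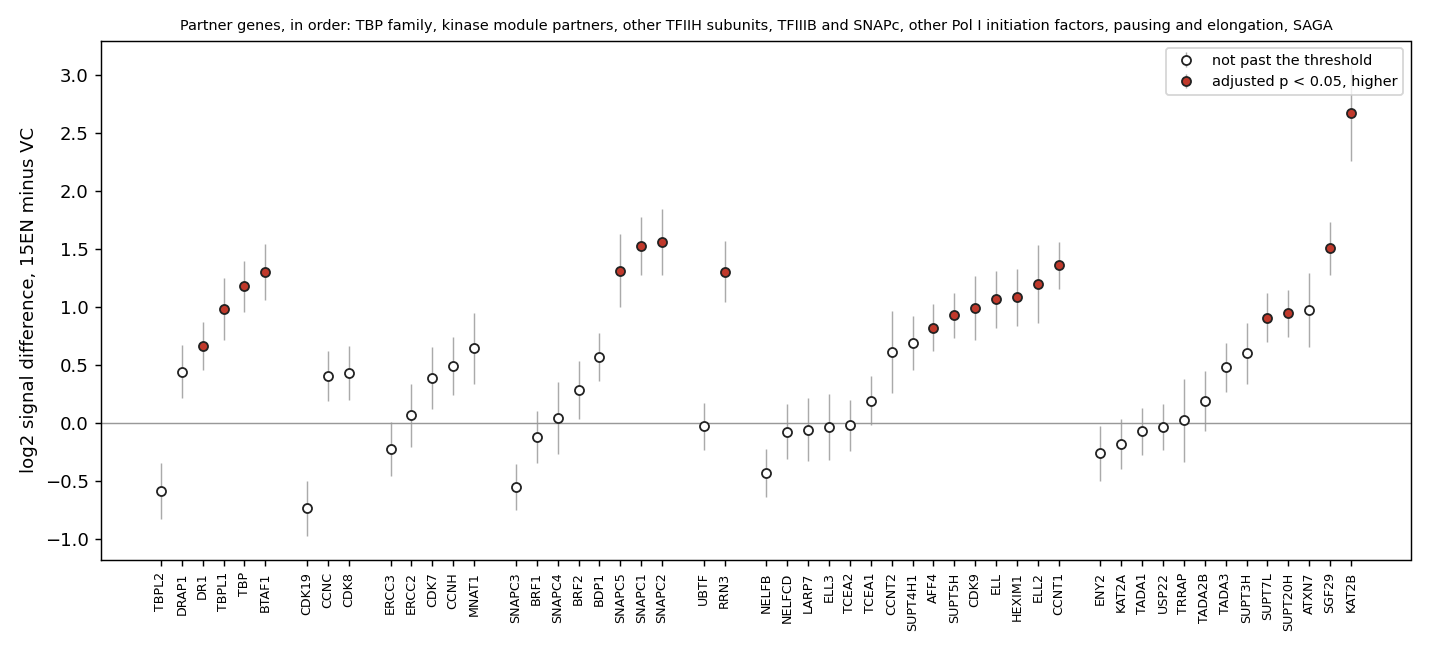
Log2 signal difference between 15EN and VC (vertical axis; bars are standard errors of the limma fit) for 52 partner genes, grouped from left to right by the lists in the title; filled points passed adjusted p 0.05. The points of KAT2B and SGF29 rest on dim VC values. In the list headed TBP family, which also holds BTAF1, DR1 and DRAP1, 4 of 6 points are filled. Among the other TFIIH subunits 0 of 5 are filled, and no point below 0 is filled.

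Markers of cell identity moved beside these genes. Of 14 sympathetic neuroblast markers 0 rose and 8 fell, beside 12.3% and 9.09% of all genes. The log2 of the summed signal of these markers was 15.72 to 16.00 in 15EN and 16.76 to 17.17 in VC. Of their brightest genes, the neuronal ELAVL4 (-1.11 ± 0.27) and STMN2 (-1.72 ± 0.22) fell, and the lineage factors GATA3 (0.07 ± 0.22) and GATA2 (-0.91 ± 0.30) did not pass. TH, the first enzyme of dopamine synthesis, was dim on all 6 arrays, as were NEFL and CHGA, the latter among the 8 that fell. Of 10 markers of substrate-adherent neuroblastoma cells 2 rose and 4 fell (15.41 to 15.99 in 15EN, 16.76 to 16.80 in VC). Of 9 fibroblast markers 0 rose and 4 fell (13.75 to 14.31 and 14.26 to 14.29), and of 6 glial markers 0 rose and 0 fell (10.05 to 10.75 and 10.81 to 11.25), with 5 of the 6 dim on all arrays. No marker was listed at 0. In such bulk samples fewer cells of a type and less RNA per cell cannot be told apart, and the part of these markers in the values of the members was not tested.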

How the data were processed

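Total RNA (100 ng) of 6 SH-SY5Y samples was hybridized as biotinylated cDNA to 1-colour Affymetrix whole-transcript arrays, per the labels' protocols. The authors deposited log2 signals, 1 per probe set and array, from the Transcriptome Analysis Console, per the submitters' processing notes. Its version, the normalization and the build: not given in the sources used here. That the values (2.20 to 18.8) are log2 was read from their range. Of 24351 probe sets, 17709 have a single symbol by the platform annotation, 0 have more, and the rest are unnamed here, which gives 17687 genes. No filter was applied, so all 70 members were tested. Of 79 symbols listed by complex 10 were not analysed here, among them MED6, MED24, MED25, MED26 and TAF9.

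15EN was tested against VC by limma 3.58.1 (R 4.3.3) through lmFit and eBayes, fitting group alone; tests were two-sided and p-values were adjusted by Benjamini-Hochberg across all genes. The ± beside a difference is the standard error of that fit. The code was tested on simulated data, where 21.3% of changes of log2 size 1 and 81.8% of size 2 were called. Far fewer genes were changed there than were called here, so these shares need not hold for the real arrays. A gene that did not pass is not shown to be unchanged. Members, lists, tests and alternatives were chosen with earlier results of these data known. Named by rule were MED18, MED8, called members, in each complex those of largest difference or highest signal, binding partners, the called partner genes of smallest p with TBP, CDK8, CDK7 and BRF1, and the brightest markers; other members and partner genes were named after their values were seen. By their titles, same-numbered arrays share a passage. They deviated together from their group means (r = 0.229, 0.162 and 0.133), so the numbers may pair the samples. The main fit leaves this pairing out, and a blocked fit was an alternative. The others were quantile normalization, median centring, scaling to the 4 hybridization controls, removing a trend with brightness, dropping the dimmest tercile, weighting arrays, averaging probe sets, and leaving out each array. The number of arrays limits the precision.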

Additional observations from a re-analysis of the deposited data

How the results depend on the processing

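Counts by complex rest on few genes near the threshold, and directions rest on the scaling. Each complex is counted by its members alone, so TFIIH and the kinase module are without their subunits of other names. Scaling to the hybridization controls, which adds the same amount to every difference, gave 12150 higher and 437 lower genes. There 61 members were higher and 0 lower with a median of 1.33. Higher counts were 22 in Mediator (median 1.38), 6 in its head (1.57), 5 in the middle (1.24), 7 in scaffold and tail (1.01), 15 in TFIID (1.41), 3 in SL1 (1.32), 7 in TFIIA, B, E and F (1.46), 3 in the TFII-I family (0.96) and 6 in TFIIIA and TFIIIC (0.96). Medians became 1.86 in the kinase module, 1.87 in TFIIH and, reversed, 0.48 for TAF5L and TAF6L. Partner genes had 48 higher and a median of 1.36. All 17 members with a negative difference turned positive with that shift, below the median gene of 0.88 there. Among the genes that turned were GTF2I (0.0461), TAF6 (0.68), GTF2E2 (0.86), GTF3A (0.84), TAF1B (0.65), TAF15 (0.69), TAF9B (0.70), BRF1 (0.75), TAF4 (0.80) and GTF3C1 (0.73).

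After quantile normalization 21 members were higher and 2 lower, 1 of them in Mediator, beside 11.5% and 10.1% of all genes. There 2 partner genes were lower, and TFIIIA and TFIIIC had 0 higher. The medians were 0.28 in the Mediator middle and 0.45 in TFIIA, B, E and F. With the brightness trend removed, 17 members were higher (median 0.32) and 2 lower, 1 of them in Mediator, beside 10.1% and 10.6% of all genes. Of the partner genes 2 were lower in that fit. Higher counts were then 3 in TFIID, 1 in TFIIH and 0 in TFIIIA and TFIIIC, whose median turned to -0.0868; medians were 0.63 in the head, 0.21 in the middle and 0.41 in TFIIA, B, E and F. Without dim genes 23 of 69 members were higher and 2 lower, 1 in Mediator, beside 19.5% and 14.3% of the genes kept. In that fit 1 partner gene was lower. Median centring gave 1 lower partner gene. With the replicate number as a block, scaffold and tail had 2 higher members and partner genes 1 lower. All 23 rising members kept their call and 25 rose, beside 13.7% of all genes, the added ones being MED27 and TAF3. Among partner genes DR1 lost its call (limma adjusted p = 0.0536) and ATXN7 gained a call (0.0206), which left 19 higher. Array weights gave 30 higher and 2 lower members (1 lower in Mediator), beside 17.9% and 12.7% of all genes. In that fit 2 were higher in scaffold and tail and 3 in TFIIIA and TFIIIC, and 2 partner genes were lower. The medians of TFIIIA and TFIIIC (-0.0337 after quantile normalization) and of the TFII-I family (-0.0585 without 15EN replicate 2) lie near 0 and crossed it. Averaging probe sets could not change a member's value, since each has 1, and tests nothing about the members.

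Leaving out 1 array gave 1301 to 3227 higher and 970 to 2240 lower genes, and 12 to 29 higher and 0 to 1 lower members. Higher members numbered 2 to 4 in the head, 2 to 3 in the middle, 2 to 3 in the kinase module, 1 to 2 in scaffold and tail, 1 to 7 in TFIID, 0 to 2 in SL1, 1 to 4 in TFIIA, B, E and F, 1 to 2 in TFIIH and 0 to 2 in TFIIIA and TFIIIC. Partner genes had 11 to 25 higher and 0 to 1 lower. Medians ran from 0.62 to 0.78 in the head and from 0.51 to 0.74 in TFIIA, B, E and F. Fewer arrays were fitted in these; the causes of the other changes were not tested.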
